A study of Danio rerio with 12 samples.

Results

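The response of zebrafish larvae with a working as3mt gene to inorganic arsenic (iAs) was described from 6 of the 12 libraries in the study. These are the libraries labelled as wild-type larvae of the strain TAB14, 3 libraries from untreated larvae at 0 mM iAs and 3 from larvae kept in 1 mM iAs from 6 hours post fertilization (hpf). All were collected as whole larvae at 119 hpf, each library holding the RNA of a pool of 10 larvae raised at 20 embryos per 10 mL well under 10 h of light and 14 h of dark. The other 6 libraries came from larvae with an 8 bp deletion in exon 3 of as3mt in the WT-ABNYU background, untreated or in 1 mM iAs, so that genotype and strain cannot be told apart between wild type and mutant. They entered here through the choice of genes to test, the scaling and the shared estimate of the spread. They also entered through the test of where the 2 responses differed. Library titles end in cl and a number, which the labels do not explain. Whether the pools of a group came from separate clutches is therefore not known, and p-values measure only the spread between these pools, which may be technical. RNA came from whole larvae and was poly-A selected, so a lower value for a tissue's genes can mean fewer of its cells or less RNA per cell, and these cannot be told apart. Symbols are written as the gene table gives them, which for many zebrafish genes is in capitals.

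As background, AS3MT is the arsenite methyltransferase that adds methyl groups from S-adenosylmethionine to trivalent arsenic and so sets which arsenic species a tissue holds. Arsenite binds protein thiols, and animals answer it with glutathione synthesis and transfer, thioredoxin, metal binding proteins and chaperones, which draw on NADPH, cysteine, glycine and folate-borne carbon. At this age a zebrafish larva has a working liver, pancreas, gut, heart, retina and swimming circuit while its skeleton and nervous system are still growing. The AS3MT transcript itself stood at 14.3, 16.8 and 17.2 CPM (counts scaled to a common library total) in the untreated libraries and at 9.77, 9.73 and 9.93 CPM in the treated ones. The groups did not overlap, and the transcript was 1.64-fold lower with arsenic (log2 fold change -0.71 ± 0.097 SE, edgeR adjusted p = 1.19e-05). Groups that do not overlap are no rarity here, since 55.5% of all genes tested had them. Here and below n is 3 libraries per group, a fold change is the fitted one from edgeR, and called means an adjusted p below 0.05. Of the 5230 genes called higher 5084 had groups that did not overlap, and of the 5124 called lower 4917. A lack of overlap therefore adds little to a call.

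Depth ran from 28909467 to 43759270 counts per wild-type library, and the common biological coefficient of variation was 9%. On the first principal component, which held 67.5% of the variance, the treated libraries lay between 40.8 and 51.5 and the untreated ones between -47.4 and -44.9. On the second, with 9.62%, untreated replicate 3 lay at -33.8, below the other 5 libraries at -8.93 to 17.9, and that library was also the shallowest. Of 23096 genes tested, 5230 were called higher and 5124 lower with arsenic, which is 44.8% called, 22.6% higher and 22.2% lower. These shares are the background for every count of members given below.

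Most of the called changes were small. Of the calls, 12.4% were under 1.2-fold and 47.1% between 1.2-fold and 1.5-fold. A total of 928 genes, 4.02% of those tested, were higher by 2-fold or more against 767, or 3.32%, lower by as much. At 8-fold or more the balance was uneven, with 92 genes higher and 31 lower. The share called rose with level, from 16.7% of genes under 1 CPM to 60.1% of those between 20 and 100 CPM, and between these classes the median SE of a log2 fold change fell from 0.44 to 0.075. As percent of the nominal CPM total, genes called higher held 16.8% to 17.4% per untreated library and 25.3% to 26.4% per treated one. Genes called lower went from 31.4% to 32.5% down to 22.3% to 23.8%. Scaled totals differ slightly between libraries, so these are not exact shares of counts. The genes were picked by their change in the same libraries, so the direction of both shifts was fixed in advance.

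**Figure D1:**
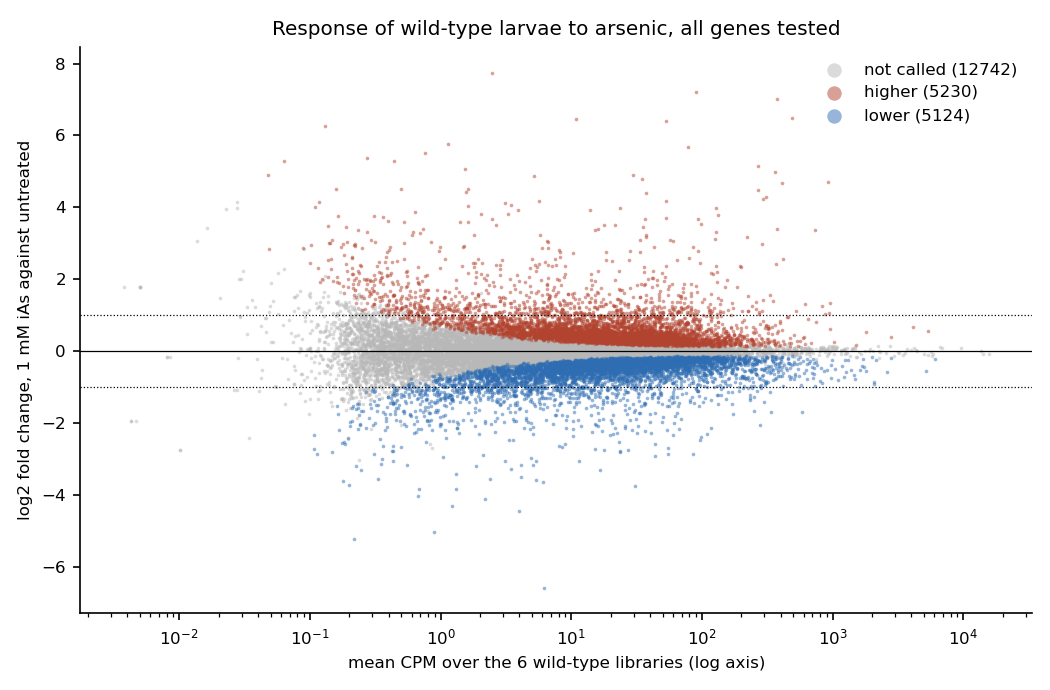
Each point is one of the 23096 genes tested, placed by its mean CPM over the 6 wild-type libraries on a log axis and by its log2 fold change with 1 mM iAs, with dotted lines at a 2-fold change. The 5230 genes called higher and 5124 called lower spread over the whole range of levels, and most lie inside the dotted lines.

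Grouped by function, the response went up in protein care and metal handling and down in the nervous system, retina, matrix and skin. The reference set of stress genes had 26 of 28 members higher, 1 lower and a median log2 fold change of 2.00. The gut set had 18 of 22 lower with a median of -1.32, against a median of 0.01 over all genes. Both sets, like every list and family here, were chosen with earlier results of these data known, so their directions test nothing. Beyond these sets, the largest shares called higher among the families were in chaperonin subunits, proteasome subunits, the vacuolar proton pump and the aminoacyl-tRNA synthetases. The largest shares called lower were in glutamate receptors, collagens, aquaporins, voltage-gated sodium channels and calcium channels. For every family or list below of which members moved in one direction only, DESeq2 also called 0 members in the other, and edgeR at an unadjusted p below 0.05 put 0 or 1 there.

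**Figure D2:**
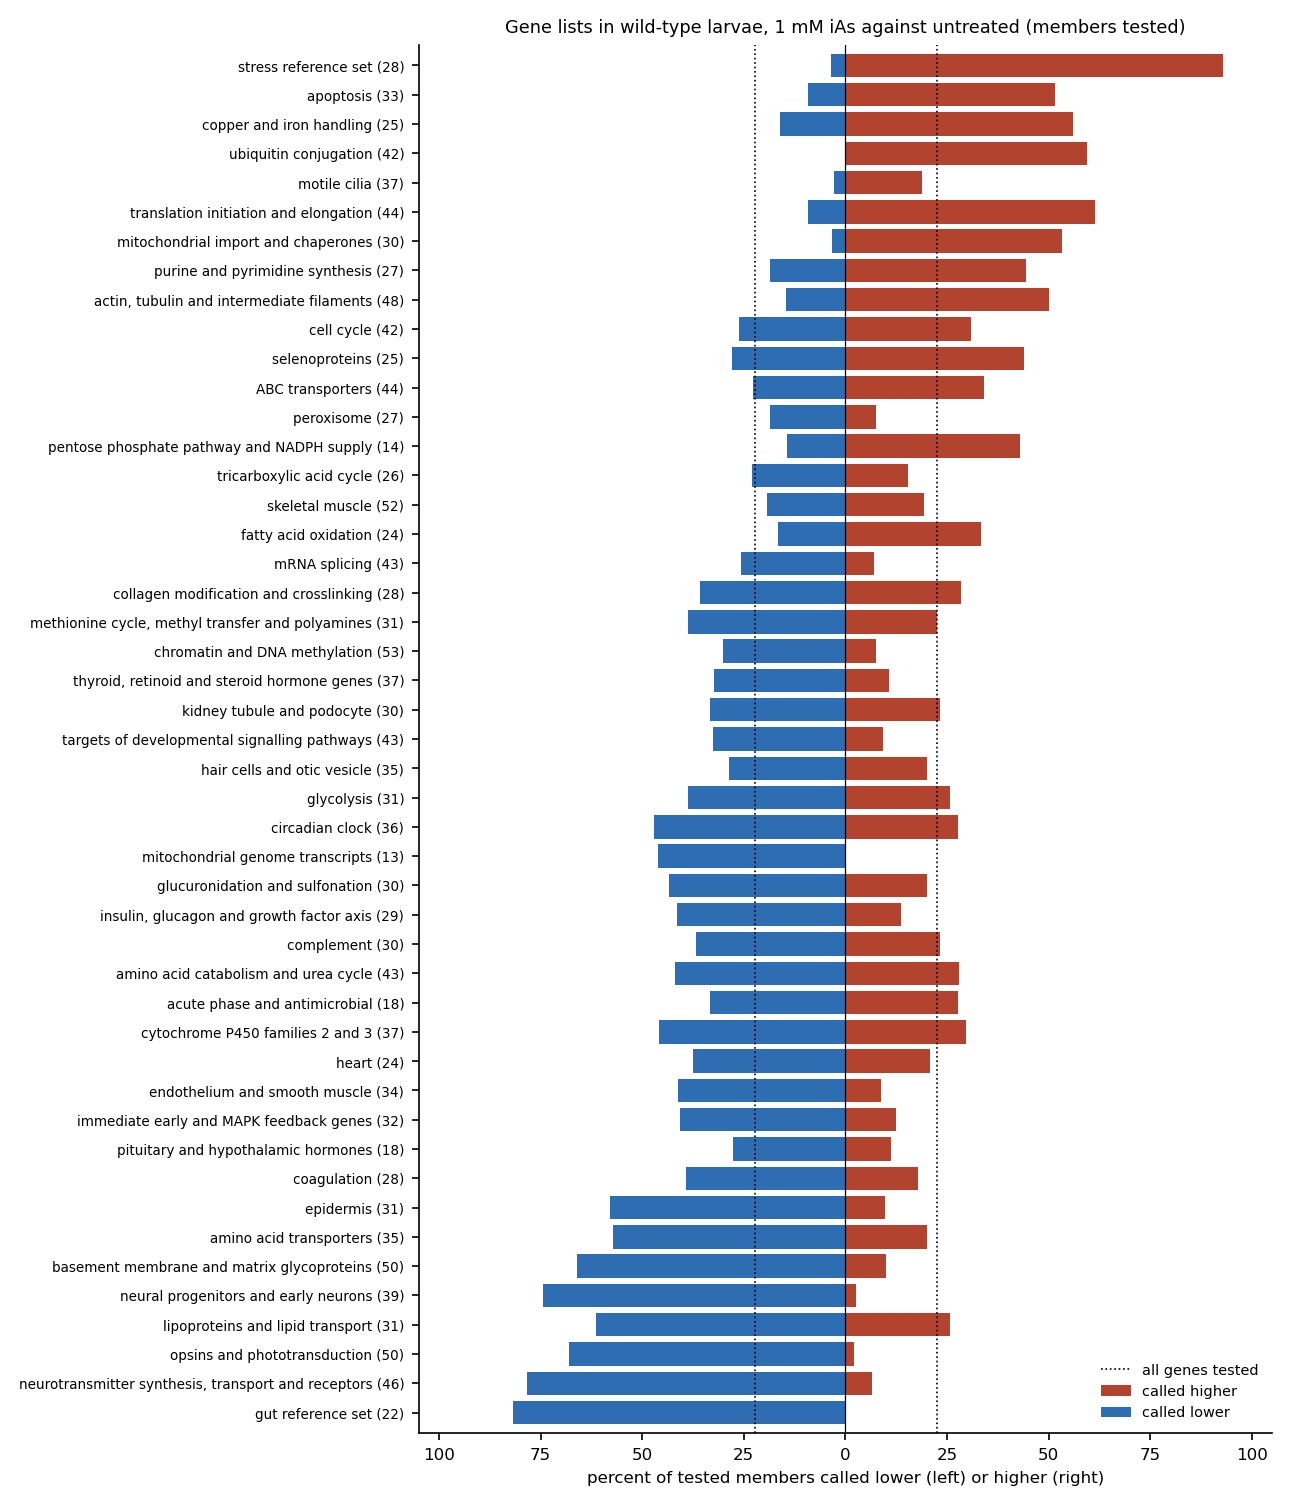
For each list of genes the bars give the percent of tested members called lower, to the left in blue, and higher, to the right in red, with the number tested in brackets and the lists in order of their median change. Dotted lines mark the 22.2% lower and 22.6% higher over all genes tested, and neurotransmitter genes, opsins and neural progenitors stand far beyond the left line.

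NADPH is the reductant behind glutathione and thioredoxin, and in the list of the pentose phosphate pathway and NADPH supply 6 of 14 were higher, 4 of them by 2-fold or more, and 2 lower, with a median log2 fold change of 0.012. Cytosolic malic enzyme ME1 stood at 7.41, 7.53 and 6.33 CPM untreated and 44.9, 45.9 and 56.3 CPM treated, 6.89-fold higher (2.79 ± 0.094 SE, adjusted p = 1.39e-13). PGD, a dehydrogenase of the oxidative pentose phosphate pathway, followed, from 62.9, 63.6 and 65.1 CPM to 320.5, 317 and 347 CPM. Every treated library lay above every untreated one for both genes, and the treated values kept within a narrow band. TALDO1, the transaldolase of the non-oxidative arm, was 3.096-fold higher, while the transketolase TKT was 1.44-fold lower (adjusted p = 1.22e-05).

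Genes of sugar burning showed no common direction. Of 31 glycolytic genes 8 were higher and 12 lower, none of them by 2-fold. Hexokinase HK2 rose 1.74-fold, whereas the liver pyruvate kinase PKLR was 1.72-fold lower. SLC2A5, the fructose carrier, fell from 7.60, 7.58 and 7.69 CPM to 0.481, 0.203 and 0.389 CPM, 21.7-fold. In the tricarboxylic acid cycle citrate synthase CS (-0.052, adjusted p = 0.49) was not called, and 4 of 26 members were higher (2 without treated replicate 3) and 6 lower, OGDH of the oxoglutarate dehydrogenase complex by 1.61-fold. Fatty acid oxidation had 8 of 24 members higher and 4 lower and the peroxisome 2 of 27 higher and 5 lower, none by 2-fold. The 2 higher peroxisome genes became 0 without treated replicate 1 or 2, 1 without any one of the other 4 libraries, with DESeq2, with DESeq2 size factors or without the filter, and 3 with the wild-type libraries alone. The carnitine palmitoyltransferase CPT1A was 1.45-fold higher and CPT1B, the form of mammalian muscle, 1.90-fold lower.

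**Figure D3:**
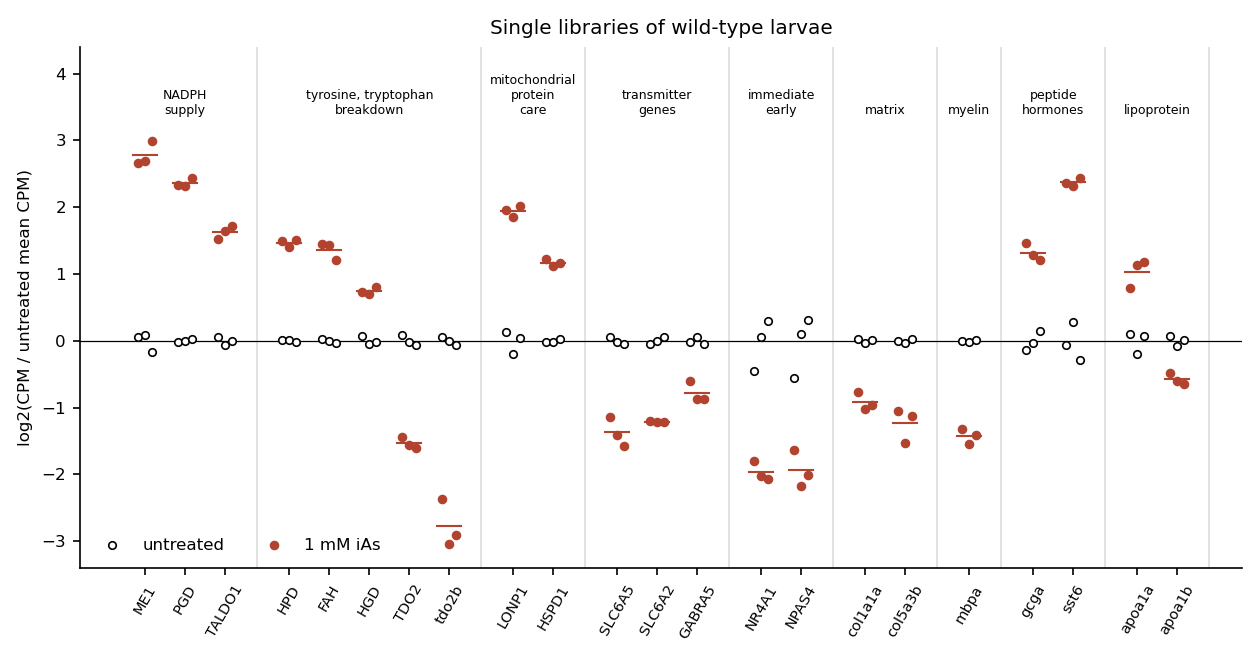
Each point is one wild-type library, plotted as log2 of its CPM over the untreated mean CPM of that gene, open for untreated and red for 1 mM iAs, with a red line at the treated mean. The untreated points stay near 0 except for NR4A1 and NPAS4, and in each of the genes shown the 3 treated points lie wholly above or wholly below them.

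Genes of amino acid breakdown were divided by pathway. Transcripts of the tyrosine pathway rose at its middle and end steps. HPD, which makes homogentisate, went from 71.5, 71.1 and 70.0 CPM to 199, 188 and 201 CPM, and FAH, the last enzyme, from 38.7, 37.9 and 37.2 CPM to 103, 102 and 88.1 CPM, with no overlap in either. HGD between them was 1.68-fold higher and the aminotransferase TAT was 1.55-fold lower.

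In tryptophan breakdown the transcripts of the first step went the other way. The dioxygenase tdo2b fell from 49.5, 47.5 and 45.5 CPM to 9.20, 5.78 and 6.33 CPM, 6.75-fold, and TDO2 from 104, 96.4 and 93.3 CPM to 35.98, 33.1 and 32.3 CPM, 2.90-fold. Kynureninase kynu, further down, was 1.89-fold higher. SDSL, an enzyme of serine breakdown, was 2.86-fold lower, and the alanine-glyoxylate aminotransferase AGXT (ENSDARG00000018478) fell from 219.5, 213 and 218 CPM to 109, 104 and 84.7 CPM. The liver form of glutaminase, GLS2 (ENSDARG00000069095), was 3.76-fold lower, and its second copy (ENSDARG00000002917) had a log2 fold change of 0.10 (adjusted p = 0.574). Over the list, 12 of 43 members were higher and 18 lower. Of 35 amino acid carriers 20 were lower and 7 higher. The falls were led by SLC7A9 of the cystine uptake system (2.83-fold) and SLC38A4 (2.201-fold). Against that, slc7a11, the cystine-glutamate exchanger that feeds glutathione synthesis, rose from 12.2, 13.5 and 10.6 CPM to 31.4, 32.9 and 35.2 CPM.

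Several enzyme transcripts of the methyl-group economy, from which arsenic methylation also draws, shifted. GNMT, which uses S-adenosylmethionine to methylate glycine, rose from 33.1, 27.02 and 33.4 CPM to 63.6, 65.7 and 66.2 CPM, 2.09-fold. GAMT, the methyltransferase that completes creatine, fell from 408, 369 and 370.2 CPM to 178, 186 and 197 CPM, 2.04-fold, and GATM before it had a log2 fold change of -0.87 (adjusted p = 1.86e-08). All 3 had groups that did not overlap. Among the enzymes that make S-adenosylmethionine, MAT1A was not called (0.17, adjusted p = 0.172), and MAT2A (ENSDARG00000037121) was 2.22-fold lower. In the list 7 of 31 members were higher and 12 lower.

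In purine and pyrimidine synthesis 12 of 27 genes were higher and 5 lower. ATIC, which closes the purine ring with folate carbon, went from 42.96, 36.04 and 45.8 CPM to 80.4, 96.3 and 92.7 CPM (2.16-fold), PAICS was 1.66-fold and the first enzyme PPAT 1.43-fold higher. Xanthine dehydrogenase XDH, which makes uric acid, was 2.62-fold lower and ADSS2 on the branch to AMP 1.77-fold lower. Genes of sulfide oxidation in mitochondria, looked at after their values were seen, were higher at 3 steps. The quinone reductase SQOR went from 14.6, 15.4 and 17.2 CPM to 192, 166 and 185 CPM, 11.5-fold, the persulfide dioxygenase ETHE1 was 4.62-fold higher and the sulfurtransferase TSTD1 8.47-fold higher.

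Enzymes that modify foreign compounds and steroids moved in both directions within families. Of 79 cytochrome P450 genes 20 were higher and 33 lower, 6 and 16 of them by 2-fold or more. cyp2k18 rose from 2.37, 1.96 and 1.98 CPM to 11.8, 15.7 and 15.12 CPM while cyp2ad2 fell from 43.6, 42.7 and 36.6 CPM to 7.91, 6.03 and 4.23 CPM, both without overlap. Among 19 cytosolic sulfotransferases, which attach sulfate to phenols and steroids, 8 were lower, 7 of them by 2-fold or more, and 2 higher. sult1st5 went from 2.76, 2.76 and 3.13 CPM to 32.3, 31.3 and 34.2 CPM, 11.3-fold higher, whereas sult1st2 went from 9.33, 9.36 and 9.01 CPM to 1.56, 0.610 and 1.01 CPM, 8.93-fold lower. UGDH, which makes the glucuronic acid donor, was 2.78-fold higher. Close copies in these 2 families can share reads, so the split between neighbours is uncertain.

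Metal, heme and selenium genes moved by up to several-fold. ABCB6 (ENSDARG00000063297), a carrier of porphyrins, rose from 7.18, 7.53 and 7.06 CPM to 69.4, 66.0 and 68.0 CPM, 9.33-fold (3.22 ± 0.088 SE, adjusted p = 8.31e-15). The zinc carrier SLC30A8, which in mammals loads the granules of islet cells, rose from 2.53, 2.58 and 2.89 CPM to 27.1, 26.3 and 29.1 CPM. The iron exporter gene SLC40A1 (ferroportin) was 2.28-fold higher and that of its inhibitor hepcidin, hamp, 2.37-fold lower, while the plasma ferroxidase CP was 2.09-fold lower. Of 25 genes for copper and iron 14 were higher and 4 lower, and the copper pumps ATP7A (1.72-fold) and ATP7B (1.69-fold) were among those higher. Selenoproteins, whose synthesis needs selenium, were mixed, with 11 of 25 higher and 7 lower. The thioredoxin reductase TXNRD3 was 2.91-fold higher, gpx4a, which reduces lipid peroxides, 3.39-fold lower, DIO1, which deiodinates thyroid hormone, 4.17-fold lower and the plasma selenium carrier selenop 1.70-fold lower.

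In the list of lipoproteins and lipid transport 19 of 31 members were lower and 8 higher. Their summed level overlapped between the groups, at 10177 to 11369.5 CPM untreated and 10168.3 to 10569.6 CPM treated. apoa1b, a high-density apolipoprotein, went from 3297, 2956 and 3143 CPM to 2232, 2071 and 1998 CPM, but its partner apoa1a went from 661, 536 and 643 CPM to 1061, 1350.2 and 1388 CPM, so that the 2 copies moved apart. The receptor SCARB1 was 2.77-fold lower and the lipid droplet protein PLIN2 4.83-fold higher. Bile acid and sterol genes, looked at after their values were seen, included NR0B2, the repressor of bile acid synthesis, 3.40-fold higher, and CYP7A1, the rate-limiting enzyme of that synthesis, 3.28-fold lower from 70.0, 63.6 and 66.0 CPM to 20.7, 20.9 and 19.4 CPM. Of the canalicular pumps, ABCB11 for bile salts was 2.90-fold lower, ABCB4 for phospholipids 2.55-fold lower and abcc2 for glutathione and other conjugates higher, from 461, 449 and 452 CPM to 834, 848 and 826 CPM. In sterol synthesis MSMO1 was 3.21-fold and CYP51A1 2.46-fold lower.

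In the list of thyroid, retinoid and steroid hormone genes 4 of 37 were higher and 12 lower, with a median log2 fold change of -0.087. Of its retinoid genes, BCO1, which splits carotene into retinal, fell from 85.3, 72.4 and 78.7 CPM to 27.3, 20.1 and 19.7 CPM, 3.54-fold, and the plasma carrier RBP4 was 1.82-fold lower. Beside these, 3 of 3 hepatocyte markers were lower and their summed level went from 4217 to 4619 CPM to 2714 to 3223 CPM. Among them fabp10a was 2.02-fold, tfa 1.39-fold and apoa1b 1.49-fold lower. Most of the sum was apoa1b, with a mean of 3132 CPM untreated and 2100 CPM treated. Its copy apoa1a, not among the markers, was called higher, as were the liver enzymes HPD, FAH and GNMT given above. Of the 2 enterocyte markers, summed at 756 to 814 CPM untreated and 511 to 585 CPM treated, FABP2 was 2.69-fold lower and VIL1 not called (0.13, adjusted p = 0.104). The part of these markers in the changes of metabolic genes was not tested. Among secreted liver proteins, named by the size of their loss, larger falls were seen in fetub, from 969, 865 and 867 CPM to 299, 262 and 271 CPM (3.25-fold), ahsg2 9.81-fold and ahsg1 12.5-fold.

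Genes of mitochondrial protein care and translation were mostly higher, while the subunits of the respiratory chain had smaller counts in both directions. The matrix protease LONP1 rose from 23.2, 18.5 and 21.9 CPM to 82.2, 76.3 and 86.3 CPM, 3.85-fold, and the inner membrane protease YME1L1 (ENSDARG00000075192) was 2.25-fold higher. The folding pair HSPD1 and HSPE1 were 2.25-fold and 2.39-fold higher, and in their list 16 of 30 were higher and 1 lower. Of 73 mitochondrial ribosomal proteins 44 were higher, with a median log2 fold change of 0.29. Without treated replicate 3 that count was 29. Of 38 complex I subunits 6 were higher and 2 lower (3 higher without untreated replicate 2 or treated replicate 1, and 1 lower without untreated replicate 1 or treated replicate 2), and of 20 ATP synthase subunits 2 were higher, and 1 was without untreated replicate 2 or 3, without treated replicate 1 or 3, with DESeq2, with DESeq2 size factors or without the filter. Of 18 cytochrome c oxidase subunits 4 were higher, 2 of them by 2-fold or more, and 2 lower (1 without untreated replicate 1 or treated replicate 3). Of the 13 transcripts of the mitochondrial genome, which encode subunits of the chain and of ATP synthase, 6 were lower, none by 2-fold. That count was 2 without untreated replicate 1, 3 without untreated replicate 3 or treated replicate 2, and 10 with the wild-type libraries alone. Together they made up 4.53% ± 0.077 (SD) of the counts untreated and 4.24% ± 0.042 treated.

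Most soluble factors of protein synthesis were higher, and few ribosomal proteins were called. Of 44 initiation and elongation factors 27 were higher and 4 lower, all within 2-fold, with the guanine exchange subunit EIF2B1 1.80-fold higher. Of 32 aminoacyl-tRNA synthetases 21 were higher, YARS1 from 47.4, 45.1 and 45.2 CPM to 99.02, 104 and 118 CPM and KARS1 from 180.3, 175 and 174 CPM to 333, 380.2 and 410.0 CPM. Of 47 large-subunit proteins of the cytosolic ribosome edgeR called 0, with 1 at an unadjusted p below 0.05 and 0 by DESeq2. Of 48 genes taken by the symbol stem of the small subunit 5 were higher and 4 lower. A stem can take in genes of other function, so these need not all be ribosomal proteins. Among those higher was rps27l, 2.32-fold, a target of p53 in mammals.

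Transcripts for protein breakdown rose as a block, and breakdown itself was not measured. Proteasome subunits were higher in 43 of 45 genes, 27 of them by 2-fold or more, and their summed level went from 2101 to 2201 CPM to 4228 to 4972 CPM. The catalytic subunit PSMB7 stood at 77.2, 74.0 and 77.3 CPM untreated and 193, 197 and 221 CPM treated, which puts every treated library more than 2-fold over every untreated one. All 9 chaperonin subunits, which fold actin and tubulin, were higher with a median of 0.68. Of 52 DnaJ cochaperones 29 were higher and 4 lower (1 lower without untreated replicate 2). Ubiquitin conjugation had 25 of 42 members higher, including the proteasome-bound protease USP14 (2.39-fold) and UCHL1 (2.97-fold).

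Lysosomal genes joined them, with 19 of 27 subunits of the vacuolar proton pump and 9 of 17 cathepsins higher and 2 of each lower. CTSD rose from 171, 160.4 and 174 CPM to 467, 511 and 513 CPM, whereas ctsl.1 fell from 109, 95.5 and 119.9 CPM to 30.5, 28.1 and 29.2 CPM. The lysosomal reductase CYB561A3 (ENSDARG00000028257) was at 0.0835, 0.387 and 0.243 CPM untreated and 20.0, 20.7 and 23.8 CPM treated, 87.9-fold higher, and 136-fold higher when untreated replicate 2 was left out. Its second copy (ENSDARG00000056281) was not called (0.10, adjusted p = 0.605).

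**Figure D4:**
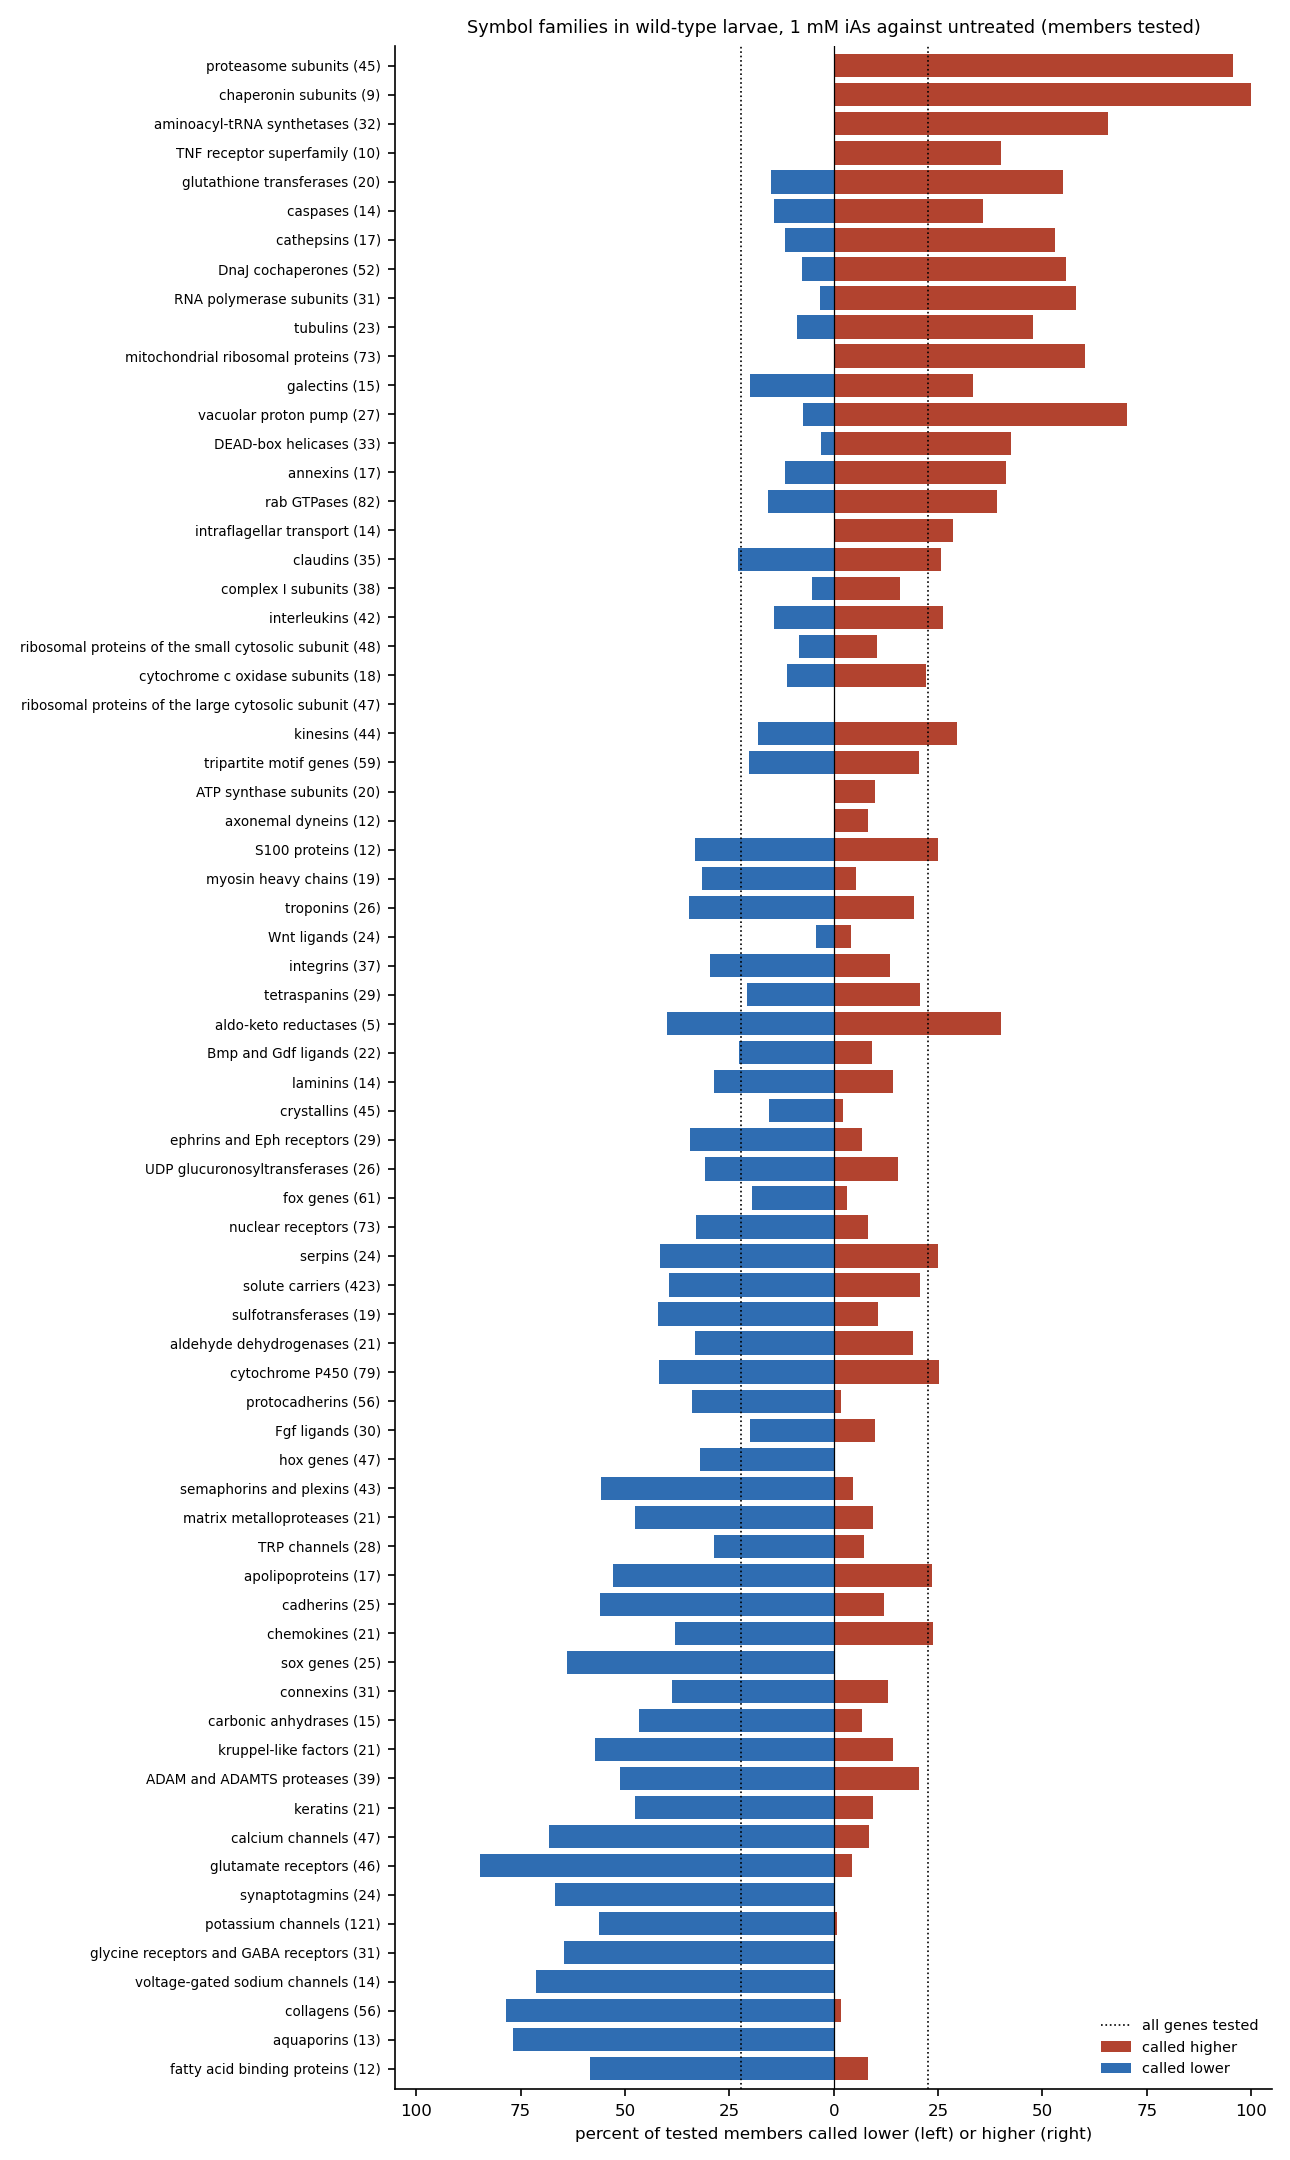
The bars give, for each family of gene symbols, the percent of tested members called lower (blue, left) and higher (red, right), with the number tested in brackets and the families in order of their median change. Proteasome and chaperonin subunits stand at the top with nearly all members higher, and fatty acid binding proteins at the very bottom. Aquaporins, collagens, transmitter receptors and the potassium, sodium and calcium channels lie near the bottom, with the blue bars far past the dotted line at 22.2%.

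In the nervous system the genes of excitability and synaptic transmission were lower across families. Of 121 potassium channel genes 68 were lower and 1 higher, with 19 lower by 2-fold or more and a median log2 fold change of -0.51. Calcium channels had 32 of 47 lower and 4 higher, voltage-gated sodium channels 10 of 14, glutamate receptors 39 of 46 with 2 higher, glycine and GABA receptors 20 of 31, and synaptotagmins 16 of 24. GABRA5, a GABA receptor subunit, went from 19.9, 21.01 and 19.6 CPM to 13.3, 10.995 and 11.02 CPM. The treated values lay wholly below the untreated ones.

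Genes of transmitter synthesis, transport and receptors were lower in 36 of 46 members, which cover glutamate, GABA, glycine, monoamines and acetylcholine. The glycine carrier SLC6A5 of inhibitory neurons fell from 40.2, 38.1 and 37.5 CPM to 17.5, 14.5 and 13.01 CPM, 2.58-fold (-1.37 ± 0.13 SE, adjusted p = 1.94e-07). The noradrenaline carrier SLC6A2 went from 16.9, 17.4 and 18.1 CPM to 7.61, 7.54 and 7.48 CPM, and the vesicle carrier for monoamines, SLC18A2, was 2.24-fold lower. Tyrosine hydroxylase TH was 1.65-fold, the decarboxylase DDC 2.02-fold and choline acetyltransferase CHAT 1.79-fold lower. The members that rose were 3 subunits of the muscle acetylcholine receptor, CHRNG from 5.51, 4.72 and 5.25 CPM to 12.1, 13.4 and 11.9 CPM, CHRNA1 by 1.28-fold and CHRND with a log2 fold change of 0.24 (adjusted p = 0.036), a call lost without untreated replicate 2, without treated replicate 2 or 3, with DESeq2 or with DESeq2 size factors. In mammals CHRNG is the subunit of the fetal receptor.

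Beside these falls 3 of 3 neuron markers were lower, with a summed level of 804 to 835 CPM untreated and 643 to 665 CPM treated. They were ELAVL3, from 276, 269.9 and 272 CPM to 240.3, 239 and 226 CPM, 1.16-fold, and the 2 SNAP25 genes by 1.35-fold (ENSDARG00000020609) and 1.18-fold (ENSDARG00000058117), and their part in the channel and transmitter genes was not tested. The myelin gene mbpa fell further, from 119, 118 and 121 CPM to 47.6, 40.7 and 44.8 CPM, 2.68-fold. Neural progenitor and early neuron genes were lower in 29 of 39 members and higher in 1, with the radial glia gene FABP7 (ENSDARG00000007697) at 227, 234 and 229.7 CPM untreated and 139, 121 and 119 CPM treated, SOX3 1.40-fold and sox19a 1.48-fold lower. The single member that rose was nes, with a log2 fold change of 0.63 (adjusted p = 1.32e-04). Sox genes were lower in 16 of 25, and semaphorins and plexins, which guide axons, in 24 of 43, with 2 higher.

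Photoreceptor markers were lower in 3 of 4 genes, with a summed level of 1881 to 2071 CPM untreated and 1275 to 1500.4 CPM treated, and their part in the other genes of the eye was not tested. Genes of light detection were lower in 34 of 50 members and higher in 1. The cone transducin GNAT2 went from 727, 749.8 and 719.7 CPM to 524, 480.3 and 442 CPM, the cone phosphodiesterase subunit PDE6H from 22.3, 22.6 and 25.04 CPM to 10.4, 7.04 and 6.47 CPM and cone arrestin ARR3 (ENSDARG00000098475) was 2.41-fold lower. Against this, one green opsin, opn1mw2, rose from 8.35, 9.82 and 10.95 CPM to 30.8, 24.7 and 31.9 CPM, 3.01-fold, while opn1mw1 was 1.52-fold lower (adjusted p = 7.24e-06). Of the 3 lens markers, both MIP genes, which encode a water channel of lens fibres, were lower, by 1.26-fold (ENSDARG00000013963) and 1.34-fold (ENSDARG00000037285), and CRYAA was not called (-0.11, adjusted p = 0.219).

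Immediate early genes, which neurons and other cells switch on within minutes of a stimulus, were lower in 13 of 32 members and higher in 4, with 8 lower by 2-fold or more. NR4A1 stood at 46.5, 66.6 and 78.2 CPM untreated and 18.2, 15.6 and 15.14 CPM treated, and NPAS4 (ENSDARG00000055752), the neuron-specific one, at 11.2, 17.8 and 20.5 CPM and 5.32, 3.63 and 4.07 CPM. The untreated values of both ranged widely, yet the treated ones lay below them all. maff, a small Maf factor that pairs with Nrf2, rose 2.80-fold.

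In the circadian clock list 10 of 36 genes were higher and 17 lower, and both groups hold activators and repressors of the loop. PER1 (ENSDARG00000012499) was 2.17-fold lower, PER3 1.91-fold lower and CRY1 (ENSDARG00000011583) 2.42-fold lower, all repressors, while NFIL3, also a repressor, was 2.02-fold higher. The activators BMAL1 (ENSDARG00000035732), at 5.54, 4.92 and 5.32 CPM untreated and 10.9, 11.7 and 11.6 CPM treated, and its second copy (ENSDARG00000006791), 1.84-fold, were higher, as was rorcb, 3.04-fold, whereas the related RORA and RORB, which are not in the list, were 1.44-fold and 1.58-fold lower. The nuclear receptors nr1d4a (-0.0091, adjusted p = 0.943) and nr1d4b (0.045, adjusted p = 0.577) were not called. aanat2, which makes melatonin in the pineal gland, was 2.22-fold higher. The activators dbpa and hlfa were 1.67-fold and 1.81-fold lower. The time of collection is given only as about 119 hpf.

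Peptide hormones included genes that were close to undetected without arsenic. Leptin b, lepb, had 0, 1 and 1 counts in the untreated libraries and 210, 122 and 248 in the treated ones, a ratio of 247 with a 95% counting interval of 68.2 to 2048. Its copy lepa went from 0.0557, 0.0773 and 0.104 CPM to 1.77, 0.881 and 0.960 CPM, 14.7-fold (adjusted p = 5.08e-05). Parathyroid hormone pth1a had 2, 0 and 1 counts untreated and 60, 44 and 74 treated, a ratio of 50.6 with an interval of 17.04 to 248. Its fitted fold was 45.9, and 81.6 without untreated replicate 1 or 30.1 without untreated replicate 2. These 3 hormones were picked after their values were seen, and the intervals cover counting error only.

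In the islet, glucagon gcga rose from 2.76, 2.96 and 3.34 CPM to 8.30, 7.36 and 7.02 CPM, 2.51-fold (adjusted p = 6.60e-05). Insulin, ins, at 12.2, 11.2 and 12.6 CPM and 9.02, 10.3 and 10.7 CPM, was 1.198-fold lower by a call (adjusted p = 0.0339) that was lost when untreated replicate 1 or 3 or treated replicate 1 or 2 was left out. The remaining islet marker sst2, at a mean of 0.600 CPM untreated and 1.02 CPM treated, was called higher (0.78, adjusted p = 0.0451). That call was lost with DESeq2, without the filter, with the replicate block, without any single untreated replicate or without treated replicate 2 or 3. Somatostatin family gene sst6, which is not among the islet markers, rose from 2.1997, 2.78 and 1.88 CPM to 11.7, 11.4 and 12.4 CPM. In the brain the stress peptide CRH fell from 3.98, 4.202 and 4.17 CPM to 1.38, 1.85 and 1.60 CPM, 2.54-fold, with TRH 1.85-fold and the feeding peptide NPY 1.90-fold lower. The growth factor binding proteins IGFBP2 (ENSDARG00000052470) and IGFBP5 (ENSDARG00000025348) were 2.097-fold and 1.85-fold lower.

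Collagens, the fibres of bone, cartilage and skin, were lower in 44 of 56 genes and higher in 1 with a median log2 fold change of -0.61, and their summed level went from 18916 to 19592 CPM to 11649 to 13294 CPM. col1a1a fell from 2776, 2668 and 2746 CPM to 1597, 1349 and 1406 CPM, 1.88-fold, and col5a3b from 195, 190.1 and 199 CPM to 93.5, 67.5 and 89.0 CPM. The cartilage collagen COL2A1 (ENSDARG00000069093) was 1.81-fold and the cartilage marker acana 1.57-fold lower. The basement membrane chains COL4A1 and COL4A2 were lower by 1.24-fold and 1.18-fold. Enzymes that modify and crosslink collagen were split, 8 of 28 higher and 10 lower, with the prolyl hydroxylase P4HA1 from 7.96, 9.56 and 9.32 CPM to 23.6, 20.6 and 19.2 CPM and P4HA2 1.92-fold higher and the lysyl oxidase LOXL3 (ENSDARG00000076306) 2.18-fold lower.

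Other matrix glycoproteins were lower in 33 of 50 members and higher in 5 (2 without treated replicate 1), with POSTN (ENSDARG00000043806) 1.95-fold lower. THBS1 (ENSDARG00000103775) rose 2.58-fold. Both keratinocyte markers were lower, summed at 8148 to 9189 CPM untreated and 5587 to 6581 CPM treated, and all 3 chondrocyte markers, summed at 3294 to 3455 CPM and 1784 to 2092 CPM, and their part in skin and matrix genes was not tested. In the skin 18 of 31 epidermal genes were lower and 3 higher, and anxa1b went from 19.7, 28.5 and 24.9 CPM to 4.63, 5.51 and 7.52 CPM and the cornified envelope gene PPL from 461, 467 and 461 CPM to 279.6, 269 and 279 CPM. krt15 was 2.02-fold lower, whereas krt18a.1, a simple-epithelium keratin, was 1.53-fold higher. The water channels were lower in 10 of 13, AQP8 from 51.7, 47.02 and 52.9 CPM to 16.1, 14.99 and 14.6 CPM, and 12 of 31 connexins were lower and 4 higher, with gja13.1 2.56-fold and gja12.1 2.45-fold lower.

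In skeletal muscle 4 of the 5 marker genes were not called, and chaperone and turnover genes rose. Creatine kinase ckma, one of the 4, stood at 3445, 2938 and 3175 CPM untreated and 3275, 2983 and 3098 CPM treated. UNC45B, the chaperone that folds myosin, rose from 42.2, 45.7 and 46.98 CPM to 274, 155 and 165 CPM, 4.402-fold, and its partner SMYD1 (ENSDARG00000091253) was 2.29-fold higher. The ubiquitin ligases trim63a and TRIM55, which mark muscle proteins for breakdown, were 2.75-fold and 3.93-fold higher. Filamin FLNC (ENSDARG00000018566), a Z-disc protein recruited to damaged fibres, rose from 64.5, 64.9 and 65.2 CPM to 692, 356 and 488 CPM, with treated replicate 1 the highest. xirp1 (ENSDARG00000030722), at 22.5, 24.7 and 23.2 CPM and 221, 118 and 149 CPM, and KLHL40 (ENSDARG00000019125), 2.95-fold higher, were looked at after their values were seen. Another xirp1 gene (ENSDARG00000092427) was higher with a log2 fold change of 1.08. That call was lost without untreated replicate 2 or treated replicate 1. The full list was even, with 10 of 52 higher and 10 lower, and 6 higher without untreated replicate 2.

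In the heart list 5 of 24 genes were higher (3 without treated replicate 2) and 9 lower, and their summed level was 735 to 738 CPM untreated and 752 to 792 CPM treated. The atrial and ventricular marker MYL7 went from 24.3, 22.9 and 20.9 CPM to 15.2, 15.96 and 13.4 CPM, 1.53-fold lower, and the calcium channel CACNA1C was 1.61-fold lower, while nppa was not called (0.14, adjusted p = 0.335). All 3 endothelial markers were lower, kdrl by 1.23-fold and cdh5 and FLI1 each with a log2 fold change of -0.20. The call on cdh5 was lost with library size alone, without untreated replicate 1, 2 or 3 or without treated replicate 1 or 3. The call on FLI1 was lost without untreated replicate 2 or 3 or without treated replicate 2. KDR, which is not among the markers, was not called (-0.28, adjusted p = 0.0569). Of the 34 endothelial and smooth muscle genes 14 were lower and 3 higher, with 9 lower without untreated replicate 1 or without treated replicate 3. Smooth muscle calponin CNN1 (ENSDARG00000017193) fell from 3.31, 3.07 and 4.03 CPM to 1.26, 0.519 and 0.983 CPM, and MYH11 (ENSDARG00000009782) was 1.35-fold lower. In the kidney 7 of 30 genes were higher and 10 lower, beside 22.6% and 22.2% over all genes tested. The albumin receptor CUBN was 2.29-fold lower, its partner LRP2 not called (-0.054, adjusted p = 0.563), and the cystine exporter CTNS 1.92-fold higher. Motile cilia had 7 of 37 genes higher and 1 lower, beside the same shares over all genes. The higher count was 4 without untreated replicate 1 or 3 or without treated replicate 2 or 3, and the lower count 2 without untreated replicate 1. MNS1 was 3.58-fold and CFAP298 1.89-fold higher.

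Of 35 hair cell genes 7 were higher and 10 lower, beside 22.6% and 22.2% over all genes tested. Of the 3 hair cell markers, s100s and 1 OTOF gene (ENSDARG00000030832) were not called. The other OTOF gene (ENSDARG00000020581) was higher (0.22, adjusted p = 0.0178), a call lost without untreated replicate 3 or treated replicate 1. The calcium binding proteins s100t and pvalb8 of hair cells and other sensory cells moved apart. s100t went from 33.6, 34.7 and 30.4 CPM to 69.0, 59.7 and 68.0 CPM. pvalb8 went from 134, 122 and 126 CPM to 63.0, 54.5 and 61.2 CPM. The transduction channel gene TMC2 (ENSDARG00000030311) was 1.77-fold lower.

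The cytoskeleton gained transcripts in 24 of 48 members and lost them in 7. Tubulins were higher in 11 of 23 genes and lower in 2. Among them tubb6 went from 9.72, 10.6 and 9.88 CPM to 19.6, 26.6 and 25.96 CPM, but the neural tubb5 was 1.23-fold lower. Cytoplasmic actin actb1 was 1.44-fold higher and actb2 not called (0.066, adjusted p = 0.512).

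Clotting genes were lower in 11 of 28 members and higher in 5, or in 2 without treated replicate 2. The inhibitor antithrombin SERPINC1 fell from 87.9, 86.5 and 91.3 CPM to 51.02, 43.3 and 35.9 CPM, and the fibrinolysis inhibitor CPB2 was 2.09-fold lower, whereas the thrombin inhibitor SERPIND1 was 1.78-fold higher.

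Immune genes had no single direction. In the complement list 7 of 30 were higher and 11 lower, with c4b of the classical pathway from 7.99, 9.64 and 6.99 CPM to 28.8, 52.3 and 34.8 CPM, c7a 2.22-fold higher and the regulator rca2.2 from 10.4, 9.67 and 9.63 CPM to 0.812, 0.858 and 0.778 CPM. The pentraxin crp5 was 6.99-fold and crp3 3.78-fold lower. Of 8 macrophage markers 1 was called, and their sum went from 12.4 to 14.5 CPM to 31.97 to 34.9 CPM. It was MPEG1 (ENSDARG00000043093), a pore protein, which rose from 5.68, 5.36 and 6.12 CPM to 25.8, 25.3 and 28.4 CPM and carried the rise of the sum. Another MPEG1 gene (ENSDARG00000055290) was not called (-0.12, adjusted p = 0.499), and neither were the MFAP4 genes. The marker chosen was mpeg1.1, matched by its symbol without the suffix, so which MPEG1 gene it is was not settled here. The neutrophil and macrophage enzyme lyz was 1.63-fold lower. Genes of class I antigen presentation, looked at after their values were seen, were higher, PSME1 from 6.40, 8.46 and 8.59 CPM to 19.9, 24.2 and 27.97 CPM, PSME2 4.00-fold, TAP1 3.76-fold and b2m 4.98-fold. The receptor chain il6st of interleukin 6 rose from 62.2, 71.1 and 66.6 CPM to 167, 164 and 167 CPM. Of 10 genes of the TNF receptor superfamily 4 were higher, tnfrsf9a by 4.32-fold, and tnfrsf1b was not called (0.48, adjusted p = 0.192). Of 21 chemokine genes 5 were higher and 8 lower, with a median log2 fold change of -0.33. Among those higher, cxcl18b went from 0.418, 0.567 and 0.139 CPM to 5.56, 5.78 and 8.32 CPM.

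Most of the cell death genes that were called rose. In the apoptosis list 17 of 33 were higher and 3 lower. The initiator caspase casp8 went from 4.399, 5.08 and 5.01 CPM to 9.74, 11.4 and 13.8 CPM and the death receptor fas was 2.87-fold higher. APAF1, the scaffold that activates caspase 9, was 2.198-fold, CASP9 2.05-fold and BAX 1.95-fold higher. AIFM2, which guards membranes against lipid peroxidation despite its place in this list, rose from 20.8, 22.5 and 24.9 CPM to 129.8, 131 and 150.4 CPM. The members of the list that fell, BCL2, xiap and BCL2L1, are inhibitors of cell death, with log2 fold changes of -0.35, -0.31 and -0.19. The inhibitors mcl1a and mcl1b were 1.38-fold and 1.33-fold higher. The call on mcl1a was lost with DESeq2 or without treated replicate 3. The call on BCL2L1 was lost without untreated replicate 1 or treated replicate 2. Genes that promote cell death also fell outside the list. Of 14 caspase genes tested 5 were higher, 4 of them by 2-fold or more, and 2 lower, both by 2-fold or more. The caspase activator diabloa was lower and its partner diablob higher, as given below.

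In the cell cycle list 13 of 42 genes were higher and 11 lower, none by 2-fold. Of genes that act in mitosis, CDC20 was 1.47-fold, espl1 1.60-fold and CDK1 1.43-fold higher, and the kinase aurka was not called (0.089, adjusted p = 0.715). All 6 helicase subunits that license replication, MCM2 to MCM7, were slightly lower, from 1.22-fold for MCM2 to 1.31-fold for MCM6. RNA splicing had 3 of 43 members higher and 11 lower, none by 2-fold, with 7 lower without untreated replicate 1 or 6 without treated replicate 2. Among chromatin genes DNMT3A (ENSDARG00000015566) was 1.49-fold lower and UHRF1 was not called (-0.15, adjusted p = 0.226). Of transcription factor families, hox genes were lower in 15 of 47 and nuclear receptors in 24 of 73, with 6 higher, and nr5a5 went from 10.4, 8.87 and 10.8 CPM to 3.49, 2.28 and 2.33 CPM. Kruppel-like factors were lower in 12 of 21 and higher in 3, with KLF15 1.89-fold lower.

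Pairs of genes whose symbols differ in a final a or b, many of them copies left by the genome duplication of bony fish, were compared member by member. Among 844 pairs both members were higher in 82 (9.72%) and both lower in 104 (12.3%), and 67 (7.94%) moved in opposite directions. In 361 pairs 1 member alone was called and in 230 neither. Over all genes 22.6% were higher and 22.2% lower, so some pairs of each kind would arise between unrelated genes. Opposite pairs were the rarest of the 3 classes with both members called, and whether copies diverged more than unrelated genes was not tested. Kept to symbols in lower case, which drops pairs such as CPT1A and CPT1B and was decided after seeing the data, 603 pairs had 47, 89 and 42 in the first 3 classes. Symbols alone do not show which pairs are copies. Both counts hold pairs such as eif5a with eif5b and cyba with cybb, which are different proteins. The pairs that follow were picked because they moved in opposite directions. The glutathione peroxidase gpx1a went from 46.03, 43.02 and 42.7 CPM to 103, 95.7 and 99.6 CPM and gpx1b from 13.4, 13.8 and 12.1 CPM to 5.44, 6.10 and 6.08 CPM. The gluconeogenic fbp1a was 1.48-fold higher and fbp1b 2.74-fold lower, and diabloa, a caspase activator, was 2.26-fold lower while diablob was 1.91-fold higher. The membrane protein gene tm4sf21a was 1.41-fold higher and tm4sf21b 2.72-fold lower. Reads shared by near-identical copies may have been split between them.

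**Figure D5:**
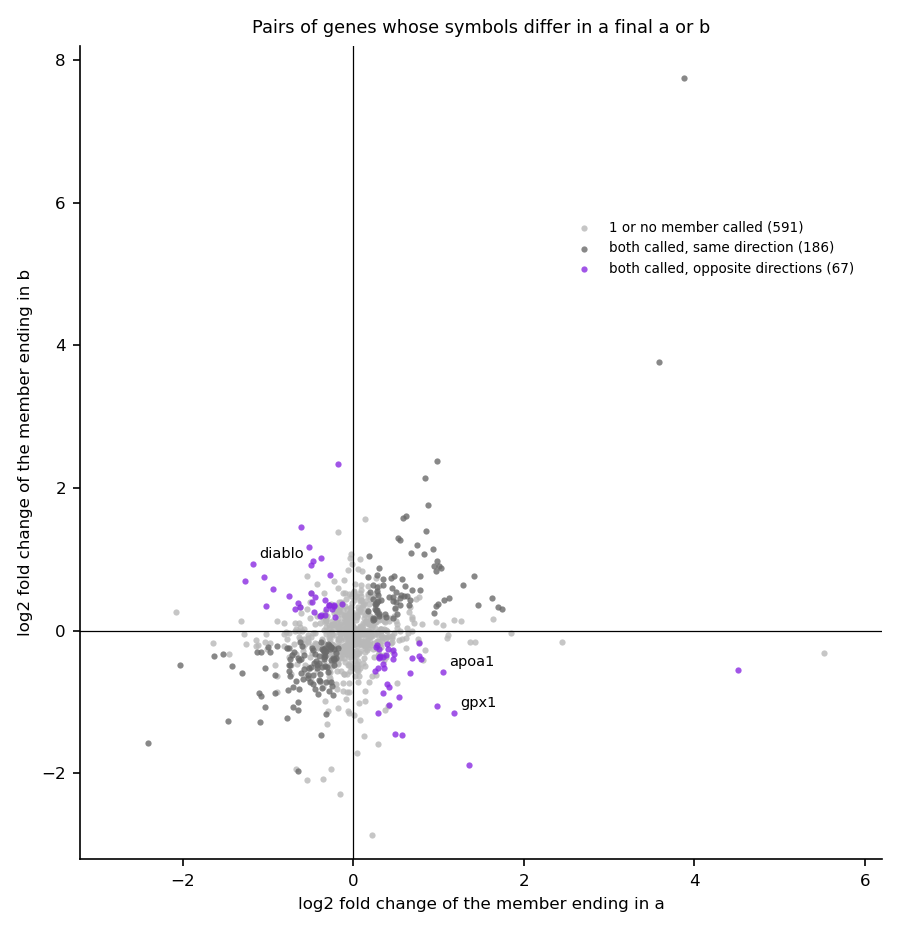
Each point is a pair of genes whose symbols differ in a final a or b, placed by the log2 fold change with arsenic of the a member (horizontal) and of the b member (vertical). The 186 pairs called in the same direction lie in the lower left and upper right, the 67 opposite pairs in the upper left and lower right, and the point at the top is the leptin pair.

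The largest single changes outside all the lists, among genes of at least 5 CPM, were rises of chaperones, reductases and iron storage genes. ptgr1.2, a reductase of reactive aldehydes and prostaglandins, went from 3.84, 8.43 and 5.01 CPM to 708, 719.5 and 819 CPM, 129-fold. The ferritin-like fthl28 went from 11.1, 10.4 and 11.1 CPM to 873, 864 and 1149 CPM, and fthl31 from 21.6, 24.3 and 19.8 CPM to 684, 671 and 745 CPM. The heat shock gene hspa1b rose 147-fold and hsp70.3 51.2-fold, and without treated replicate 1, the highest, they rose 92.3-fold and 31.3-fold. gsto2, of the omega class of glutathione transferases that in mammals can reduce methylated arsenic, went from 29.2, 30.7 and 30.4 CPM to 587, 609 and 566 CPM, 19.5-fold, and the thiol methyltransferase tpmt.2 from 2.84, 2.24 and 3.37 CPM to 40.7, 39.8 and 52.3 CPM, 15.9-fold. The largest falls, besides the fetuins given above, were in ENPP7 (ENSDARG00000053526), which digests sphingomyelin, 13.4-fold, and the acyl-CoA hydrolase ACOT12, 8.33-fold.

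Whether these changes depended on genotype was tested as the difference between the mutant and the wild-type response, which was past an adjusted p of 0.05 for 30.2% of genes and by 2-fold or more for 7.75%. Among the 24 largest single changes, 12 in each direction, 10 differed by at least 2-fold, and strain differs together with genotype. The rise of gsto2 was 19.5-fold in wild-type larvae and 5.85-fold in mutants, and that of tpmt.2 15.9-fold and 5.71-fold. The fall of ahsg2 was 9.81-fold in wild type and 127-fold in mutants. ptgr1.2 (129-fold and 81.8-fold, adjusted p = 0.0950) and pm20d1.1 (4.94-fold and 4.96-fold lower, adjusted p = 0.981) had differences that were not called.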

How the data were processed

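Poly-A RNA of whole larvae was sequenced on a NextSeq550 after a TruSeq V2 preparation with 12 cycles of PCR, per the labels' protocols and the study's design text. The deposited files hold raw counts per Ensembl gene, and per the submitters' processing notes FastQC 0.11.5, Trimmomatic 0.36 and the build GRCz10 were used by the authors. Not given in the sources used here are the aligner, the counting tool and its use of strand, so overlapping and antisense genes, and close copies, cannot be told apart. Of 32105 gene IDs 26269 had a symbol in the gene table used, and 1709 symbols stood on more than 1 ID, where the ID is printed.

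All 12 libraries were fitted with edgeR 4.0.16 in R 4.3.3 (quasi-likelihood test, TMM scaling, filterByExpr with a minimum count of 10, 4 groups of 3 libraries, 8 residual degrees of freedom), and the wild-type contrast and the difference between the mutant and wild-type contrasts were tested with Benjamini-Hochberg adjustment over 23096 genes. Every adjusted p is from this test. CPM values are counts scaled by TMM and are not divided by transcript length, so levels of different genes are not compared. Precision follows depth, and the intervals of the genes with the fewest counts cover counting error only. The script was tested on simulated data with far fewer changed genes than were called here. It recovered 47.7% of 65 changes of 0.5 on the log2 scale, 80.6% of 67 changes of 1 and 92.3% of 65 changes of 2. Of its calls 7.05% were false.

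The gene lists (47, with 1495 of 1556 entries matched), the 70 symbol families and the genes named were chosen with earlier results of these data known. The named genes are AS3MT, the first 2 entries of each list, the cell type markers, the 12 largest rises and 12 largest falls at a mean of at least 5 CPM outside the lists, up to 4 called members of each list at a mean of at least 1 CPM, up to 2 per direction in each family, the 10 largest gains and 10 largest losses in CPM and up to 8 opposite pairs. Other genes named were picked after their values were seen, among them CHRND, nes, opn1mw1, TKT, GATM, GLS2, FAH, HGD, TH, DDC, CHAT, APAF1, CASP9, BAX, PER3, BMAL1, RBP4, SLC40A1, CP, RORA, RORB, nr1d4a, nr1d4b, NFIL3, dbpa, hlfa, mcl1a, mcl1b, aurka and tnfrsf1b. Alternatives were DESeq2 1.42.0, other scalings and filters, the 6 wild-type libraries alone, a replicate block, a fold threshold of 2 and each library left out in turn. Some genes are not reported here. No sequence is printed.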

Additional observations from a re-analysis of the deposited data

Results flagged for a closer look

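The size of the response differed between mutant and wild-type larvae for 10 of the 24 largest single changes, by the interaction term of edgeR's quasi-likelihood test over all genes and by at least 2-fold. Values are mutant minus wild-type log2 fold changes, with n = 3 libraries in each of 4 groups, and strain differs together with genotype, so the 2 cannot be told apart.

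Among the rises, HSPA2 rose more in mutants, by 2.19 (edgeR adjusted p = 0.0368, 20.9-fold in wild type and 95.3-fold in mutants). The omega class transferase gsto2 rose less in mutants, with a difference of -1.74 (adjusted p = 2.03e-08), and so did the methyltransferase tpmt.2, with -1.47 (adjusted p = 1.50e-04).

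The falls were deeper in mutants in all 7 genes of this kind that passed. The plasma protein genes ahsg2 and crp5 differed by -3.69 (adjusted p = 1.29e-05) and -3.76 (adjusted p = 3.20e-06), crp5 falling 6.99-fold in wild type and 94.7-fold in mutants. The complement factor gene bfb differed by -1.28 (adjusted p = 2.57e-04). Genes of digestion and uptake followed, the aminopeptidase XPNPEP2 with -1.11 (adjusted p = 7.86e-04), the ceramidase ASAH2 with -1.47 (adjusted p = 9.00e-08), the carotenoid oxygenase bco1l with -1.20 (adjusted p = 0.00471) and the cathepsin ctsbb with -1.43 (adjusted p = 5.55e-04).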

How the results depend on the processing

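No named gene that was called turned its direction under any alternative. The balance of higher and lower genes did turn with DESeq2, with DESeq2 size factors, without the filter and without treated replicate 1 or 3. Without treated replicate 1 there were 4652 higher and 4976 lower genes, and without treated replicate 3 there were 4119 and 4436. List medians close to 0 changed sign, such as that of the pentose phosphate list, from 0.012 to -0.0061 with DESeq2 size factors. The counts of 5230 higher and 5124 lower genes became 4917 and 5377 with DESeq2 size factors, 5284 and 4911 with library size alone, 4922 and 5398 with DESeq2, 4943 and 5215 without the filter, 4942 and 4895 at a mean count of at least 50, and 5494 and 5368 with the wild-type libraries alone. They ranged from 4119 to 4711 higher and from 4279 to 4976 lower with each library left out in turn, and genes whose response differed between genotypes from 6005 to 6410. A fold threshold of 2, a stricter question by construction, left 311 higher, 222 lower and 343 that differed between genotypes. With the replicate block the counts were 5143 and 5031, and 6799 that differed. The labels do not say what a replicate number marks, and same-numbered libraries deviated together with correlations of only 0.0065, 0.0374 and 0.0695. Untreated replicates 2 and 3 correlated best with the treated replicate of the same number, and untreated replicate 1 best with treated replicate 2 (0.0368). Correlations this small over 3 libraries per group cannot show whether the numbers pair the samples. Changes under 1.2-fold and genes under 1 CPM are at the limit of this depth.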
